A study of Homo sapiens with 4 samples.

Results

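The subunits of the transcription factor NF-kB and the proteins that hold it back are described here. Control cells are set beside cells with a knockdown of the transcriptional co-regulator LDB1. The genes are the 10 rows of the deposited expression table named NFKB1, NFKB2, RELA, RELB, REL, NFKBIA, NFKBIB, NFKBIE, TNFAIP3 and BCL3, out of 28412 genes, chosen by name. The first 5 encode the DNA-binding subunits, and the other 5 encode inhibitors and regulators. RNA-seq of total RNA had been performed in 4 libraries labelled NB4, the name of an established human line of acute promyelocytic leukemia. It was done to find the transcripts that change when LDB1 is knocked down. In 2 libraries the cells were titled with the control shRNA (sh-NC) and given the genotype control, and in the other 2 with an shRNA that knocks down LDB1 (sh-LDB1). The source field calls the sh-NC samples untreated. Per the study's methods, shRNAs were delivered with the lentiviral vector pLKO.1 and infected cells were selected with puromycin. Several LDB1 shRNAs were described, and which of them was sequenced was not stated. Nothing said that the replicates came from separate cultures, so p-values measure only the spread between these libraries, which may be technical.

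NF-kB dimers are kept in the cytoplasm by IkB proteins until a kinase complex, IKK, marks the IkB for destruction. In the canonical route, tumor necrosis factor, interleukin-1 or microbial products free dimers that contain RELA or REL with the processed NFKB1 product. In the alternative route, receptors such as LTBR and CD40 stabilise the kinase NIK, which drives processing of the NFKB2 precursor, and its product pairs with RELB. Several members, NFKBIA, NFKB2, RELB, BCL3 and TNFAIP3 among them, are themselves well known NF-kB target genes, which makes the pathway a feedback circuit. In myeloid cells the pathway governs inflammatory genes and survival.

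LDB1, which the shRNA targets, stood at 135.1 and 120.1 FPKM in sh-NC against 10.2 and 9.47 FPKM in sh-LDB1. FPKM counts fragments per kilobase and divides them by a depth that the authors scaled between libraries. On log2(FPKM + 1), the scale of every fold change below unless another is named, LDB1 fell by 3.56 (SE 0.0765, adjusted p = 6.9e-05, limma). The libraries held 14036489 to 16234728 recovered reads. The markers went against the label NB4, and the identity of the line was not tested here. The study states that its lines were authenticated by short tandem repeat profiling. Its supplement reports that a submitted NB-4 sample matched the reference profile exactly. Whether that sample and the sequenced cells were the same stock was not stated. Promyelocyte transcripts were few: ELANE, a defining granule protease, had a value above 0 in 1 library alone (0.182 FPKM, sh-LDB1 replicate 1), and the 10 measured promyelocyte markers summed to 13.7 and 12.3 FPKM in sh-NC against 42.5 and 38.4 FPKM in sh-LDB1. The 16 erythroid markers summed to 4317 and 4507 FPKM in sh-NC against 450.5 and 413.7 FPKM in sh-LDB1, and all 15 that were tested fell, each past a fold of 2. Among them HBZ, an embryonic globin, stood at 1543 and 1600 FPKM against 58.9 and 61.3 FPKM. The 8 measured monocyte markers summed to 0.763 and 0.426 FPKM in sh-NC against 6.01 and 6.16 FPKM in sh-LDB1. One gene, ITGAM, made up most of the latter (4.89 and 4.94 FPKM), and CD14 stood between 0.108 and 0.350 FPKM. Mitochondrial genes took 16.3% and 17.3% of the summed FPKM in sh-NC against 11.8% and 11.3% in sh-LDB1. The part of these shifts in the results below was not tested. In bulk RNA, fewer cells of a type and less RNA per cell cannot be told apart.

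The promoters of the members were read first, because several of these genes carry well known NF-kB sites of their own. Promoter windows, from 250 bases before the RefSeq start to 50 bases from it, were at hand for 8 of the 10 members (GRCh38.p14; NFKB1, NFKB2, RELA, REL, NFKBIA, NFKBIB, TNFAIP3 and BCL3), in 13 windows. Searched on both strands, the kappaB consensus, the motif that NF-kB dimers recognise, matched in 8 of the 13 windows and in 7 of the 8 genes, against 5.91% of all 35116 RefSeq windows and 7.09% of 27305 genes. RELA held no match in either of its windows. The letters GATAA, the core recognised by GATA factors, matched in 2 of the 13 windows, 1 of NFKB2 and 1 of NFKBIB, against 22.7% of all windows. A match of letters is a description and not a bound site. The matched stretches are shown 5′ to 3′ on the strand of the gene, with the kappaB match in capitals, since they are the motif that 7 of the 8 genes, all but RELA, hold:
NFKB1, chr4:102501300-102501329: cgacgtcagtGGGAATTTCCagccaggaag
NFKB2, chr10:102394462-102394490: aaacgtcatGGGAATTCCCCcctccgggg
NFKB2, chr10:102394490-102394519: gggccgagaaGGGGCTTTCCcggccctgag
NFKB2, chr10:102395519-102395548: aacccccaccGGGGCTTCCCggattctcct
NFKB2, chr10:102395674-102395703: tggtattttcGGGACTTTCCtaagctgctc
REL, chr2:60881518-60881546: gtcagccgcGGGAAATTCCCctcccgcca
NFKBIB, chr19:38899932-38899960: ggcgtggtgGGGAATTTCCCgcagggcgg
TNFAIP3, chr6:137867188-137867217: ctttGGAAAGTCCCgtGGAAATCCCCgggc
BCL3, chr19:44748700-44748729: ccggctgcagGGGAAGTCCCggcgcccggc
Counting the RefSeq start as 0, the match of NFKB1 began at base -49, that of REL at -47 and that of NFKBIB at -28. TNFAIP3 held 2 matches between bases -67 and -46. NFKB2 held 4 matched stretches over 2 alternative starts, with overlapping matches joined. In BCL3 the match lay just past the start, from base 2 to 11, in an exon of the MANE Select transcript, the reference transcript shared by RefSeq and GENCODE. The matches of NFKB1, NFKBIA and TNFAIP3 lay upstream of the gene, and those of NFKB2, REL and NFKBIB lay in an intron or in an exon of another transcript. For NFKBIA, the member whose level was highest after knockdown, the whole stretch before the start is shown (chr14:35404750-35404999, minus strand), with its match from base -81 to -72:
NFKBIA: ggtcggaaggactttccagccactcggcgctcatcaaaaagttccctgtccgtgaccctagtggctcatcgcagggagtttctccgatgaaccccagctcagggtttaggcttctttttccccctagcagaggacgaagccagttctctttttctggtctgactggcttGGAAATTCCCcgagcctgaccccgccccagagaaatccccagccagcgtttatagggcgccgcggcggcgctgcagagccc

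**Figure D1:**
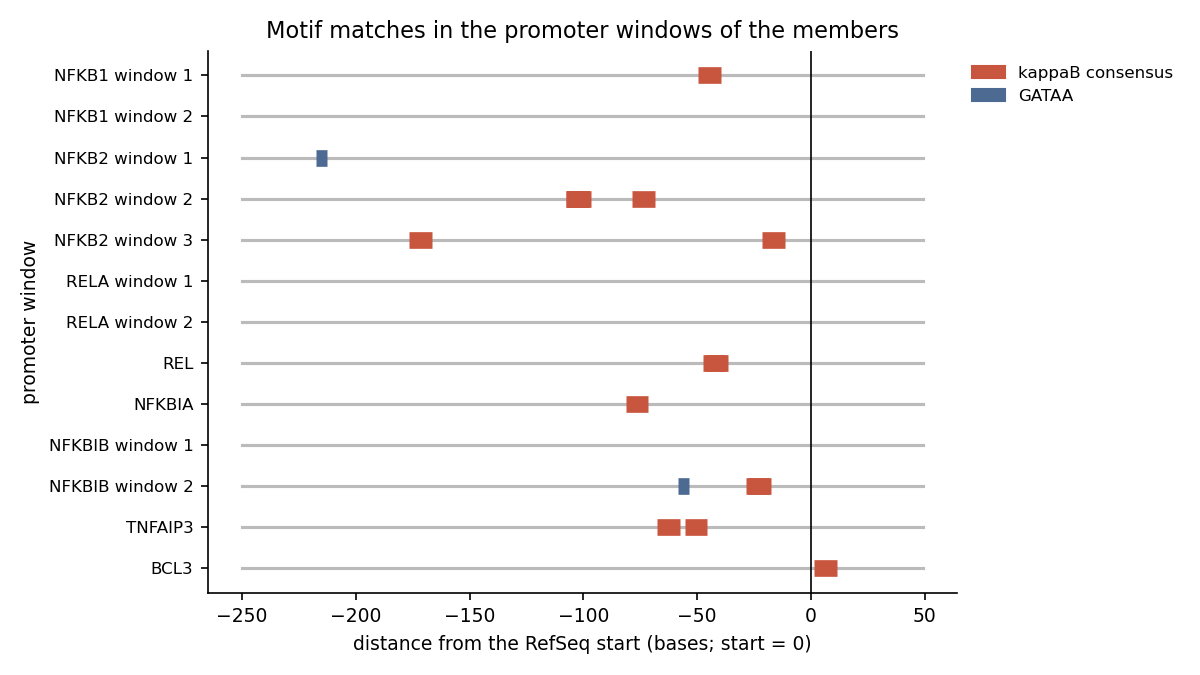
Matches of the kappaB consensus (red) and of GATAA (blue) in the 13 RefSeq promoter windows of 8 members; the x axis is the distance in bases from the RefSeq start, at 0. Red marks stand in 8 windows and blue marks in 2, and neither window of RELA holds a mark.

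Of the 10 members, 8 had a mean of at least 1 FPKM and were tested; REL (mean 0.892 FPKM) and TNFAIP3 (0.211 FPKM) lay below this filter. Among the 8, 6 were higher after LDB1 knockdown (NFKB2, RELB, NFKBIA, NFKBIB, NFKBIE and BCL3), 1 was lower (NFKB1), and RELA did not pass. The 7 that passed stand beside 67.4% of all 13300 tested genes, the 6 beside 29.9% that were higher, and the 1 beside 37.4% that were lower. With a fold above 2 also asked for, 4 members were higher (NFKB2, RELB, NFKBIA and BCL3) beside 9.5% of all genes, and 0 were lower beside 10.3%; in either direction the share of all genes was 19.8%. The median log2 fold change of the 8 was 1.02, against -0.08 over all genes tested. RELB reached the filter through its knockdown libraries alone and so had to be higher. With at least 1 FPKM asked for in every library, RELB dropped out and 7 members were tested. Then 6 were higher, RELA now among them, and 1 was lower, with 3 past a fold above 2 and a median of 0.95. Of all 11184 genes tested then, 3358 were higher, 4622 lower and 845 past a fold above 2, with a median of -0.10. In the main fit the median was 0.67 for the 4 tested subunits, RELB included, and 1.61 for the 4 tested inhibitors and regulators. Of the latter, the IkB genes NFKBIA, NFKBIB and NFKBIE had log2 fold changes of 2.27, 0.88 and 0.95. BCL3, which is not a plain inhibitor, had 2.58. The groups did not overlap for any of the 8, with 7 higher and 1 lower, but that held for 84.6% of all genes (38.3% higher and 46.3% lower), so the count in both directions is near the background.

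**Figure D2:**
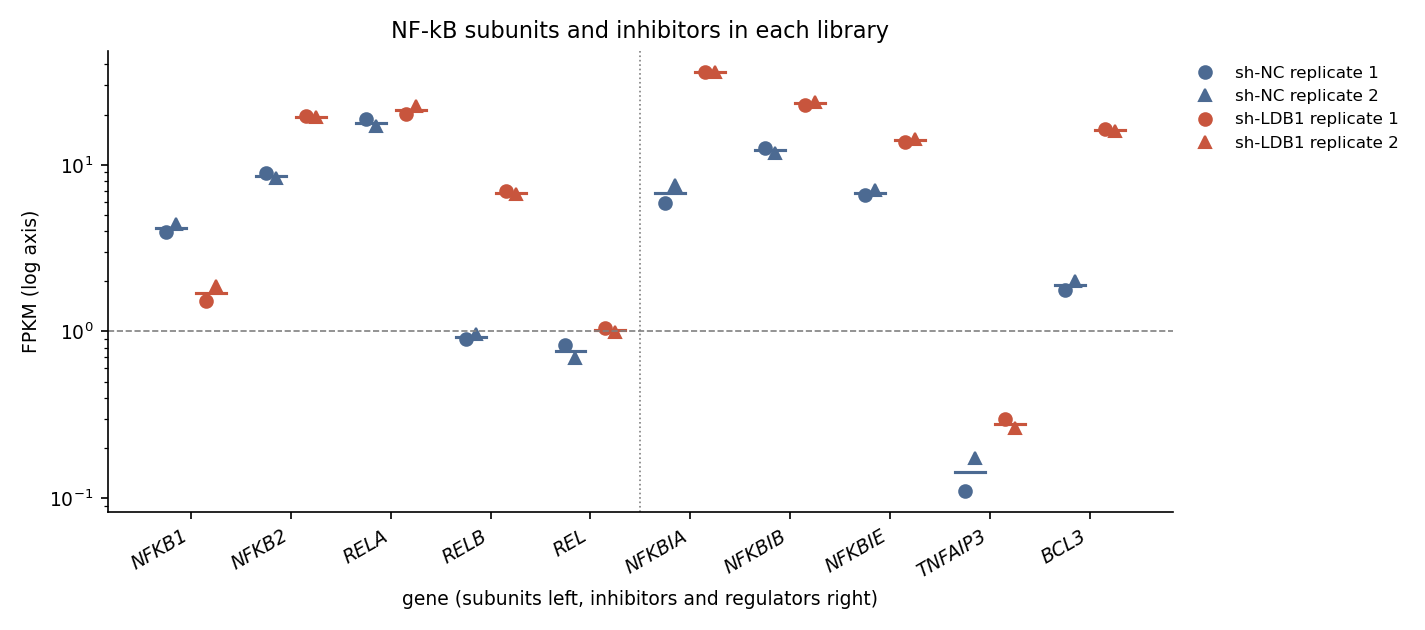
FPKM of the 10 members on a log axis, with circles for replicate 1, triangles for replicate 2, bars for the group means, blue for sh-NC and red for sh-LDB1; the dashed line is 1 FPKM. The red points lie above the blue ones for 9 members and below them for NFKB1.

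RELA, on chromosome 11 (ENSG00000173039, chr11:65653599-65663090, minus strand), encodes the main activating subunit of the canonical route. It was the most abundant subunit in every library, at 18.8 and 17.1 FPKM in sh-NC against 20.1 and 22.7 FPKM in sh-LDB1. The sh-LDB1 libraries were the higher ones, but the gap between the groups was smaller than the difference between replicates within either group. The log2 fold change was 0.24 (95% interval 0.02 to 0.46, adjusted p = 0.0555, limma), which missed the threshold. The call turned on scaling and filter: with FPKM rescaled to an equal sum in every library the log2 fold change was 0.42 (adjusted p = 0.0139, limma), and over 14 alternatives the adjusted p ran from 0.000482 to 0.222.

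NFKB1, the precursor of the canonical partner subunit (ENSG00000109320, chr4:102501330-102617302, plus strand), was the only member to fall. Its level was 3.94 and 4.40 FPKM in sh-NC against 1.52 and 1.88 FPKM in sh-LDB1, from 399 and 406 reads against 152 and 178 reads. Both knockdown libraries lay well under both controls. The mean in sh-LDB1 was 40.7% of that in sh-NC, and the log2 fold change was -0.94 (SE 0.110, adjusted p = 0.00196, limma). This stood just short of a fold of 0.5 on the log2(FPKM + 1) scale and past it with a pseudocount of 0.1 or 0.01, and of the genes tested 12.0% had a lower value.

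NFKB2, the precursor of the alternative route (ENSG00000077150, chr10:102394110-102402524, plus strand), moved the other way. It stood at 8.88 and 8.29 FPKM in sh-NC against 19.6 and 19.3 FPKM in sh-LDB1. The replicates lay close together and the groups far apart. Its log2 fold change was 1.09 (SE 0.0545, adjusted p = 0.000195, limma), a ratio of means of 2.27. RELB, the usual partner of the processed NFKB2 product (ENSG00000104856, chr19:45001461-45038192, plus strand), was nearly silent in the controls, at 0.896 and 0.961 FPKM from 44 and 43 reads. After knockdown it stood at 6.97 and 6.64 FPKM, from 339 and 305 reads. This was the largest rise among the subunits, with a log2 fold change of 2.02 (SE 0.0792, adjusted p = 0.000131, limma) and a ratio of means of 7.33. Both controls were under 1 FPKM, so RELB reached the filter through sh-LDB1 alone and had to be higher.

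REL, the subunit c-Rel (ENSG00000162924, chr2:60881491-60931612, plus strand), was low in all libraries, at 0.830 and 0.690 FPKM in sh-NC against 1.05 and 0.999 FPKM in sh-LDB1. The long transcript still gave 177 and 134 reads in sh-NC against 221 and 199 reads in sh-LDB1. The knockdown libraries were the higher ones by a small margin. With no filter on low values the log2 fold change was 0.20 (adjusted p = 0.299, limma), which did not pass. The ratio of the depth-scaled reads was 1.34 (exact 95% interval 1.16 to 1.56, which covers counting error only).

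Because the subunits did not move together, their shares within each library were compared, which no scaling of the libraries can alter. NFKB2 and RELB together made up 29.3% and 29.4% of the summed FPKM of the 5 subunits in sh-NC against 54.0% and 50.3% in sh-LDB1. Both knockdown libraries gave the alternative-route pair a far larger share than either control. NFKB1 went from 11.8% and 14.0% to 3.08% and 3.65%, and RELA from 56.4% and 54.4% to 40.8% and 44.1%. RELB alone went from 2.69% and 3.06% to 14.2% and 12.9%. The level of NFKB2 was 2.25 and 1.88 times that of NFKB1 in sh-NC against 12.9 and 10.3 times in sh-LDB1. The ratio of RELB to RELA was 0.0477 and 0.0562 in sh-NC against 0.347 and 0.293 in sh-LDB1. No group overlapped in any of these shares, and the exact two-sided permutation p was 0.333 for each, the smallest that 2 against 2 libraries allow. Gene lengths set these shares: with reads divided by the MANE Select transcript length, NFKB2 and RELB made up 23.1% and 23.3% in sh-NC against 44.9% and 41.3% in sh-LDB1.

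**Figure D3:**
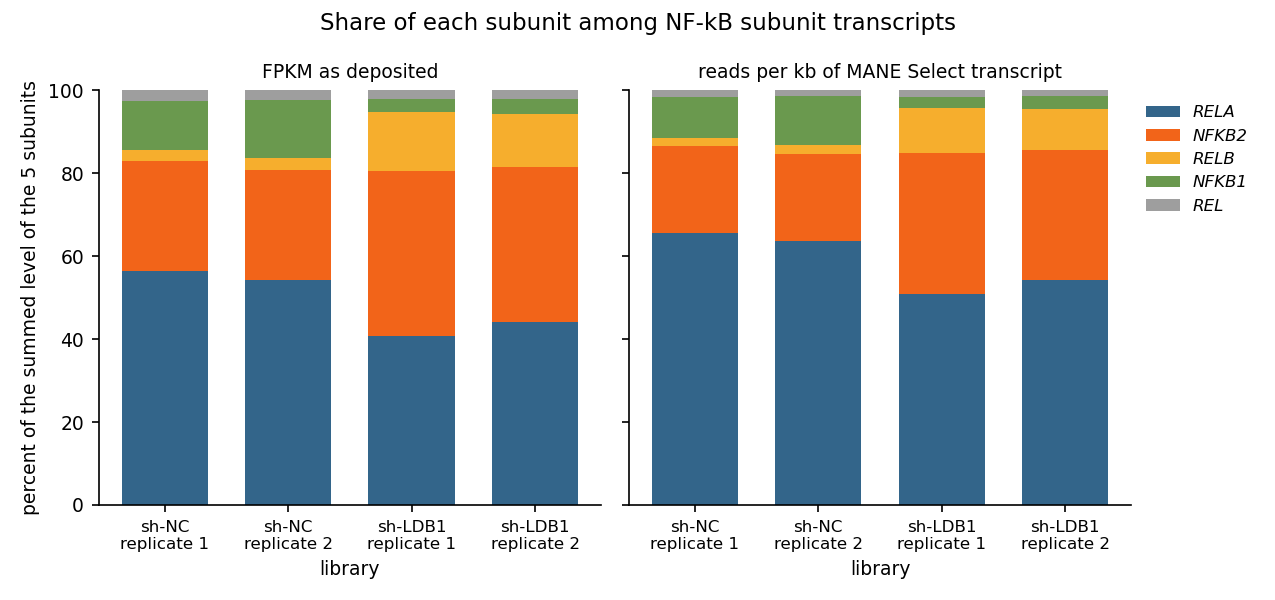
Stacked bars give the percent of the summed level of the 5 subunits taken by each subunit in each of the 4 libraries, from FPKM as deposited (left) and from reads per kilobase of the MANE Select transcript (right). NFKB2 and RELB together take 29.3% and 29.4% in sh-NC against 54.0% and 50.3% in sh-LDB1 on the left.

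By level, the order in sh-NC was RELA, NFKB2, NFKB1, RELB and REL, with means of 17.9, 8.58, 4.17, 0.928 and 0.760 FPKM. RELB and REL were neighbours whose gap was under 2 times the SD of REL (0.0994 FPKM, n = 2), with no overlap. In sh-LDB1 the order was RELA, NFKB2, RELB, NFKB1 and REL, with means of 21.4, 19.4, 6.81, 1.70 and 1.02 FPKM. RELA and NFKB2 then differed by about the SD of RELA (1.84 FPKM, n = 2), while RELB had passed NFKB1.

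Among the inhibitors, NFKBIA encodes IkB-alpha, the fast feedback inhibitor that NF-kB itself induces (ENSG00000100906, chr14:35401079-35404749, minus strand). It stood at 5.91 and 7.57 FPKM in sh-NC against 36.2 and 36.0 FPKM in sh-LDB1. The controls differed more from each other than the knockdown libraries did, yet both were several times lower. The log2 fold change was 2.27 (SE 0.113, adjusted p = 0.000196, limma), and 0.835% of tested genes had a higher value. Its promoter, printed above, holds 1 match of the kappaB consensus.

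NFKBIB, which encodes IkB-beta (ENSG00000104825, chr19:38899700-38908893, plus strand), was the most abundant inhibitor in the controls, at 12.6 and 11.8 FPKM, and stood at 22.8 and 23.9 FPKM in sh-LDB1. NFKBIE, which encodes IkB-epsilon (ENSG00000146232, chr6:44258166-44265788, minus strand), stood at 6.61 and 7.02 FPKM in sh-NC against 13.7 and 14.4 FPKM in sh-LDB1. Both rose in each knockdown library by far more than the replicates differed. The log2 fold changes were 0.88 (SE 0.0560, adjusted p = 0.000347, limma) for NFKBIB and 0.95 (SE 0.0579, adjusted p = 0.000315, limma) for NFKBIE, so both passed the test and lay short of the fold threshold.

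The make-up of the IkB pool changed as well. NFKBIA took 23.5% and 28.7% of the summed FPKM of the 3 IkB genes in sh-NC against 49.8% and 48.5% in sh-LDB1, while NFKBIB went from 50.2% and 44.8% to 31.4% and 32.1%. The summed IkB level was 0.755 and 0.840 times the summed subunit level in sh-NC against 1.48 and 1.44 times in sh-LDB1. Transcripts of the IkB genes were thus fewer than those of the subunits in the controls and more numerous after knockdown, with an exact permutation p of 0.333, the smallest possible. With MANE Select lengths the ratio was 0.657 and 0.725 in sh-NC against 1.34 and 1.29 in sh-LDB1.

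BCL3, an IkB-like nuclear protein that binds dimers of the processed NFKB1 or NFKB2 product and can activate transcription with them (ENSG00000069399, chr19:44747705-44760044, plus strand), rose the most of the 8 tested members. It stood at 1.77 and 2.01 FPKM in sh-NC against 16.5 and 16.0 FPKM in sh-LDB1, from 93 and 96 reads against 857 and 786 reads. Every knockdown value was several times every control value. The log2 fold change was 2.58 (SE 0.0685, adjusted p = 8.1e-05, limma), the ratio of means was 8.60, and 0.541% of tested genes had a higher value. Relative to NFKB2, the level of BCL3 was 0.200 and 0.242 in sh-NC against 0.841 and 0.831 in sh-LDB1.

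TNFAIP3, which encodes the ubiquitin-editing brake A20 (ENSG00000118503, chr6:137867214-137883314, plus strand), stood apart from the other inhibitors by being scarcely expressed. It had 0.110 and 0.175 FPKM in sh-NC against 0.297 and 0.262 FPKM in sh-LDB1, from 9 and 13 reads against 24 and 20 reads. The values did not overlap, but they rest on few reads. With no filter the log2 fold change was 0.16 (adjusted p = 0.131, limma), and the ratio of the depth-scaled reads was 1.99 (exact 95% interval 1.16 to 3.48, counting error only).

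By level, the order in sh-NC was NFKBIB, NFKBIE, NFKBIA, BCL3 and TNFAIP3, with means of 12.2, 6.81, 6.74, 1.89 and 0.142 FPKM. NFKBIE and NFKBIA could not be ordered there, since their libraries overlapped. In sh-LDB1 it was NFKBIA, NFKBIB, BCL3, NFKBIE and TNFAIP3, with means of 36.1, 23.3, 16.3, 14.0 and 0.279 FPKM, and no neighbours overlapped. Exons shared with other genes were short except in REL. NFKBIB shares 40 exonic bases with SIRT2 on the opposite strand, RELA 103 with RELA-DT and TNFAIP3 95 with WAKMAR2, and whether the counting used strand was not given in the sources used here. REL shares 5702 of its exonic bases with a noncoding gene of the same strand, so its low values are less certain.

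**Figure D4:**
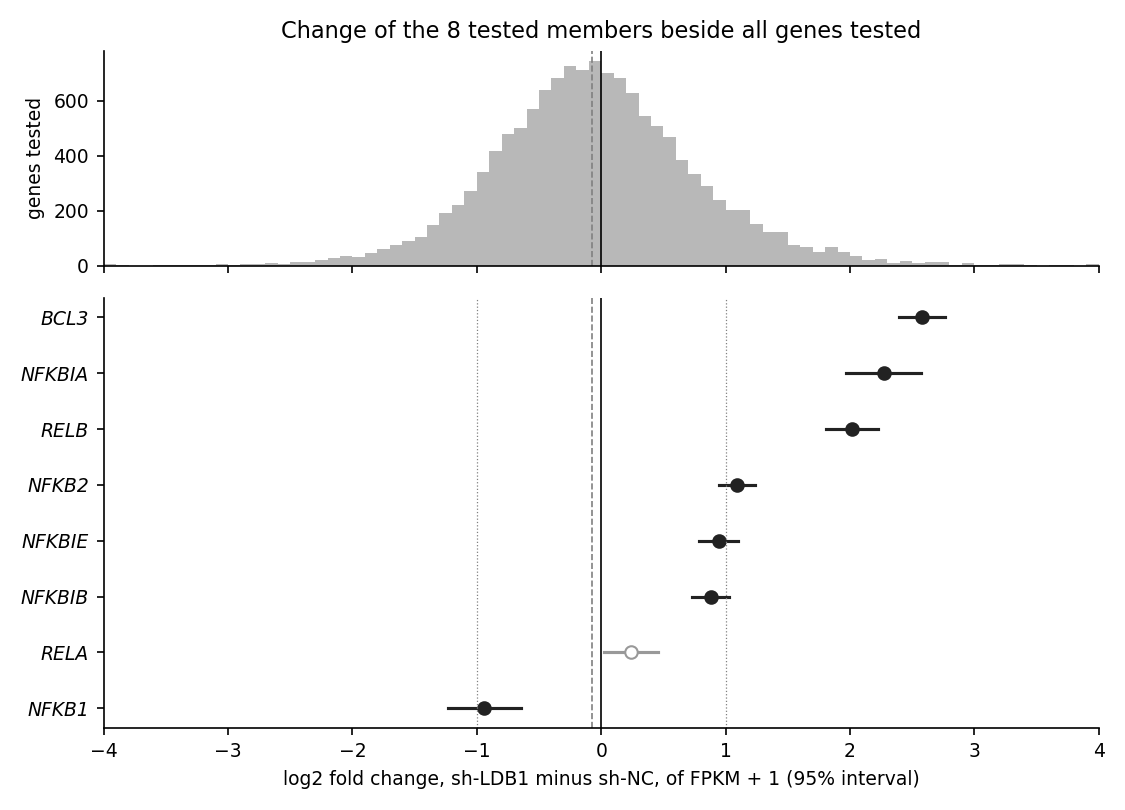
Upper panel: histogram of the log2 fold change (sh-LDB1 minus sh-NC, of FPKM + 1) of all 13300 tested genes; lower panel: the same quantity for the 8 tested members with its 95% interval, filled where the adjusted p passed. The dashed line is the median of all genes (-0.08) and the dotted lines are folds of 0.5 and 2; BCL3 (2.58) is the farthest right and NFKB1 (-0.94) the only member left of 0.

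The other genes of the pathway were taken from 7 lists ordered by role, and each is described by its counts, since no test of the lists was made. TNF, IL1B, BIRC3 and TRAF1 each stand in 2 of the lists. Among the kinases that act on IkB or on NFKB2, 12 of 12 were tested. Of these, 7 (58.3%) were higher, beside 29.9% of all genes tested, and 4 (33.3%) lower, beside 37.4%. IKBKE, the inducible IKK-related kinase, was the one past a fold of 2, at 2.72 and 2.29 FPKM in sh-NC against 10.03 and 8.82 FPKM in sh-LDB1 (log2 fold change 1.57, adjusted p = 0.000351, limma). The core kinases moved less and not one way: IKBKB (IKK-beta) had a log2 fold change of -0.45, CHUK (IKK-alpha) 0.19 and IKBKG (the scaffold NEMO) 0.46, all past the test. CHUK passed narrowly (adjusted p = 0.0344, limma), and the kinases that were higher numbered 6 with no filter or with the replicate block. MAP3K14, the kinase NIK of the alternative route, had 2.29 and 2.45 FPKM in sh-NC against 4.33 and 4.14 FPKM in sh-LDB1 (log2 fold change 0.64, adjusted p = 0.00217, limma). These 4 were named after their values were seen.

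Among receptors, 25 of 30 had a row and 11 were tested. Of these, 6 (54.5%) were higher, beside 29.9% of all genes tested, and 2 (18.2%) lower, beside 37.4%. Of the 6, TNFRSF9, TLR6 and LY96 reached the filter through sh-LDB1 alone and so had to be higher, and TNFRSF8 reached it through sh-NC alone and so had to be lower. Of the other 7 receptors, 3 were higher and 1 was lower. TNFRSF1A, the main TNF receptor, rose from 8.08 and 7.89 FPKM to 32.2 and 30.5 FPKM (log2 fold change 1.85, adjusted p = 8.3e-05, limma). TNFRSF12A, the receptor of TWEAK, rose from 14.6 and 14.2 FPKM to 31.6 and 29.0 FPKM (1.02 on the log2 scale). The 2 that fell were named after their values were seen. TNFRSF8 (CD30) went from 6.38 and 6.39 FPKM to 0.852 and 0.690 FPKM (log2 fold change -2.06, adjusted p = 0.000154, limma). TNFRSF1B, the other TNF receptor, fell by 0.22 on the log2 scale (adjusted p = 0.0300, limma), a narrow pass. The receptors that were lower numbered 1 with no filter, with voom, without the eBayes trend and with each other scaling of the FPKM. Of the entry points of the alternative route, LTBR, the lymphotoxin-beta receptor, rose from 10.95 and 10.3 FPKM to 17.8 and 16.2 FPKM (log2 fold change 0.63, adjusted p = 0.00149, limma). CD40 lay between 0.173 and 0.245 FPKM in the 4 libraries and was not tested. Of the ligands, 10 of 13 had a row and 3 were tested: TNFSF14, CD70 and IL18, at 0.0891, 1.24 and 0.684 FPKM on average in sh-NC against 2.64, 7.73 and 2.42 FPKM in sh-LDB1. All 3 passed as higher, but TNFSF14 and IL18 reached the filter through sh-LDB1 alone and so had to be, and with at least 1 FPKM asked for in every library 0 ligands were left to test. TNF itself, under the filter, had 0.0737 and 0 FPKM in sh-NC against 1.56 and 1.18 FPKM in sh-LDB1. These ligands were named after their values were seen.

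Among adaptors and ubiquitin ligases, 24 of 28 were tested, with 11 (45.8%) higher, beside 29.9% of all genes, and 7 (29.2%) lower, beside 37.4%. Of the 7, TRAF5 reached the filter through sh-NC alone and so had to be lower. The 18 that passed were 75.0% of those tested, near the 67.4% of all genes. TRADD, which links TNFRSF1A to the pathway, stood at 13.2 and 11.2 FPKM in sh-NC against 32.0 and 33.4 FPKM in sh-LDB1 (log2 fold change 1.36). IRAK2, a kinase below interleukin-1 and Toll-like receptors, stood at 1.69 and 1.67 FPKM against 8.89 and 7.78 FPKM (1.80 on the log2 scale). TRAF3, which keeps NIK low and so restrains the alternative route, fell from 5.80 and 5.29 FPKM to 2.04 and 2.14 FPKM (log2 fold change -1.08, adjusted p = 0.000487, limma), and was named after its value was seen. Of the other brakes on the pathway, 18 of 20 were tested, with 11 (61.1%) higher, beside 29.9% of all genes, and 1 (5.56%) lower, beside 37.4%. RNF11, a partner of A20, rose from 8.27 and 9.10 FPKM to 23.2 and 23.2 FPKM (1.32 on the log2 scale).

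Genes that NF-kB is known to induce were taken in 2 lists. Of the inflammatory targets, 30 of 38 had a row and 15 were tested. Of these, 13 (86.7%) were higher, beside 29.9% of all genes tested, and 1 (6.67%) lower, beside 37.4%. Of the 13, CXCL8, CXCL2, CXCL3, IL23A, EBI3 and PLAU had mean levels under 1 FPKM in sh-NC, reached the filter through sh-LDB1 alone and so had to be higher. Of the other 9 targets, 7 were higher and 1 was lower. CXCL8, the neutrophil chemokine interleukin-8, stood at 0.380 and 0.417 FPKM in sh-NC against 14.1 and 14.4 FPKM in sh-LDB1 (log2 fold change 3.44, adjusted p = 6.8e-05, limma). CSF1, the macrophage growth factor, stood at 4.66 and 4.89 FPKM against 44.1 and 46.8 FPKM (3.01 on the log2 scale). TNFAIP2 rose by 2.87 and ICAM1, an adhesion receptor, by 1.84 on the log2 scale. STAT5A was the one that fell, from 67.9 and 67.2 FPKM to 14.8 and 14.6 FPKM. Interleukin-6 (IL6), often used as a readout of the pathway, lay between 0.627 and 0.721 FPKM in all 4 libraries, and it too was named after its values were seen.

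Of the survival targets, 7 of 12 were tested, with 3 (42.9%) higher, beside 29.9% of all genes tested, and 3 (42.9%) lower, beside 37.4%. The 6 that passed were 85.7% of those tested, beside 67.4% of all genes. GADD45B reached the filter through sh-LDB1 alone and so had to be higher, and of the other 6 tested, 2 were higher and 3 lower. Of the 3 falls, that of CFLAR, an inhibitor of death-receptor signalling named after its value was seen, was narrow (log2 fold change -0.30, adjusted p = 0.0466, limma), and 2 falls were left with each of the 3 other scalings of the FPKM, with the replicate block and in 3 of the 4 fits without 1 replicate (all but that without sh-NC replicate 2). IER3, an immediate early gene, rose from 9.34 and 12.1 FPKM to 110.2 and 119.3 FPKM (log2 fold change 3.32, adjusted p = 0.000121, limma), and the caspase inhibitor XIAP from 5.77 and 6.35 FPKM to 18.0 and 18.8 FPKM. MYB, a progenitor transcription factor, fell from 24.5 and 25.3 FPKM to 3.41 and 3.07 FPKM, and the cyclin CCND1 from 20.9 and 19.4 FPKM to 6.85 and 6.43 FPKM.

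**Figure D5:**
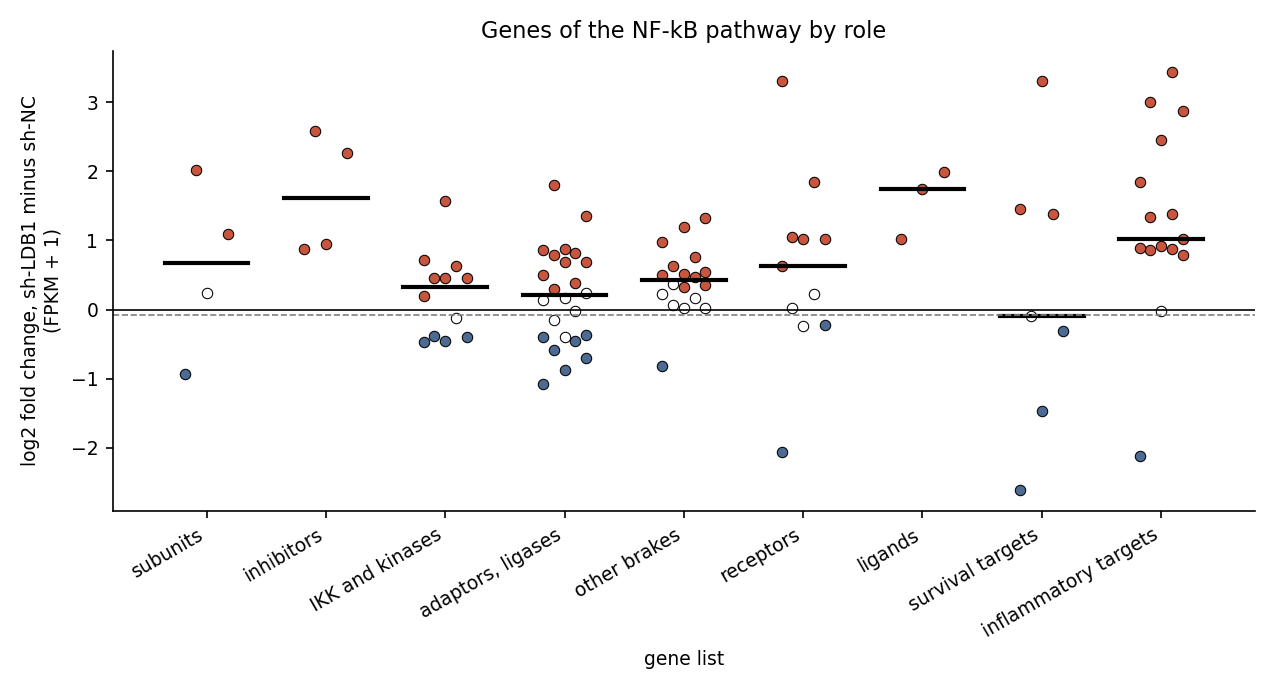
Each point is a tested gene, placed by list and by its log2 fold change (sh-LDB1 minus sh-NC, of FPKM + 1): red where it was higher, blue where it was lower and white where the adjusted p did not pass; bars are list medians and the dashed line the median of all genes. The medians run from -0.10 for the survival targets to 1.74 for the ligands, a list of 3 genes of which 2 reached the filter through sh-LDB1 alone.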

How the data were processed

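RNA-seq was measured in 2 sh-NC and 2 sh-LDB1 libraries, grouped by their labels. After read filtering and mapping with HISAT, the authors deposited 1 FPKM value per gene and library, unpooled; the submitters' processing notes name HISAT2 2.0.5 and hg38. The annotation and the counting tool were not given in the sources used here. The table held 0 columns of no sample. The members and gene lists were chosen with earlier results of these data known.

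Those genes whose mean reached 1 FPKM (13300 of 28412) were compared on log2(FPKM + 1) with limma 3.58.1 (R 4.3.3; lmFit, eBayes with a trend, no replicate block), and p-values were adjusted by Benjamini-Hochberg over all of them. The added 1 makes changes of low genes look smaller than they are. A gene passed at an adjusted p below 0.05, and past the fold threshold also at a fold above 2 or below 0.5. The fit was tested on simulated data in which few genes changed. Most genes passed here, so that test does not show how the fit behaves in such a setting. Replicates correlated at 0.985 (sh-NC) and 0.984 (sh-LDB1) over genes, and libraries of different groups at 0.856 to 0.863.

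FPKM values are whole multiples of 1 read, so reads were recovered with gene lengths from GENCODE 44 (GRCh38); 98.7% of values came out whole within 0.001. Read totals depend on those lengths, and intervals from reads cover counting error only. The median ratio over genes was equal in all libraries, so the authors' FPKM had been scaled by median of ratios before deposit.

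Named were the 10 members, LDB1, TNFRSF1A, LTBR and CD40, the marker genes of highest mean FPKM or near 0, and of each other list up to 4 genes per direction of smallest adjusted p among those past the fold threshold with a mean of at least 5 FPKM. Alternatives changed the pseudocount, filter, scaling, model, block, threshold and replicates. Positions are from GENCODE 44, promoter sequences from RefSeq (GRCh38.p14). Other steps used Python 3.11.15, numpy 2.4.6, pandas 2.3.3, scipy 1.17.1 and matplotlib 3.10.9.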

Additional observations from a re-analysis of the deposited data

How the results depend on the processing

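Of the 8 tested members, 7 kept their direction and their side of the threshold in all 14 alternatives to the fit (13 for RELB, which a filter of at least 1 FPKM in every library removed). RELA passed in 5 of 14: with that filter (adjusted p = 0.0435), rescaled to an equal sum per library (0.0139), by median of ratios (0.0226), by total reads (0.0212) and with voom on recovered reads (0.000482), all from limma. NFKB1 was also past a fold of 0.5, so that the members past it counted 1 and not 0, with a pseudocount of 0.1 or 0.01, rescaled to an equal sum per library and with voom; leaving out 1 replicate gave 0 to 1, with 1 without sh-NC replicate 1 and 1 without sh-LDB1 replicate 2. Members past a fold above 2 numbered 3 to 6 over these alternatives, with 6 (NFKBIB and NFKBIE added) when rescaled to an equal sum and with voom. At an adjusted p below 0.001, 0 members were lower, since NFKB1 missed it, and with limma's treat against a fold of 2, 3 were higher and 0 lower.

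The median of the members was 1.10 with a pseudocount of 0.1, 1.11 with 0.01, 0.91 with no filter, 0.95 with at least 1 FPKM in every library, 1.25 rescaled to an equal sum, 1.11 by median of ratios, 1.13 by total reads and 1.22 with voom. With MANE Select lengths, an alternative chosen after seeing the data, the gain in the share of NFKB2 and RELB was 19.9 percentage points (22.8 with the lengths of the FPKM), that of NFKB1 -7.74 (-9.55) and that of the ratio of RELB to RELA 0.166 (0.268). Without a filter 10 of 25 tested receptors and 7 of 10 tested ligands were higher, beside 4917 of all 28412 genes. With 1 FPKM in every library 3 of 7 receptors and 7 of 9 inflammatory targets were higher, beside 3358 of all 11184 genes, and 0 ligands were tested.

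Rescaling to an equal sum per library moved the median of all genes from -0.08 to 0.07. It raised the share of higher genes among those past the fold threshold from 48.0% to 61.4% (2026 higher and 1276 lower, from 1264 and 1371), and voom gave 2042 and 1552. Replicates with the same number did not deviate together (r = 0.0196 across genes). With so few libraries this cannot tell whether those of the same number were prepared together. A fit with the replicate number as a block again gave 6 members higher and 1 lower, a median of 1.02 and, over all genes, 3890 higher and 4808 lower against 3983 and 4978. Depth limits TNFAIP3 most, which had 9 to 24 reads per library.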

Other observations

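Interferon-stimulated genes, which share upstream kinases with NF-kB, were a further list, of which 11 of 16 had a row and 6 were tested. After LDB1 knockdown 4 (66.7%) were higher, beside 29.9% of all genes tested, and 2 (33.3%) lower, beside 37.4%. Of the 4, IFIT3 reached the filter through sh-LDB1 alone and so had to be higher. Of the other 5 tested, 3 were higher and 2 lower. ISG15, a ubiquitin-like protein, stood at 24.8 and 25.5 FPKM in sh-NC against 51.3 and 51.3 FPKM in sh-LDB1 (log2 fold change 1.00, adjusted p = 0.000139, limma). IFI6 stood at 6.29 and 3.92 FPKM against 18.4 and 19.3 FPKM. IRF7, a regulator of interferon genes, rose from 3.08 and 2.50 FPKM to 21.6 and 19.2 FPKM (log2 fold change 2.50, adjusted p = 0.000146, limma). RSAD2, an antiviral enzyme named after its value was seen, fell by 0.57 on the log2 scale (adjusted p = 0.00878, limma).

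T cell markers summed to 24.6 and 21.6 FPKM in sh-NC against 47.6 and 51.0 FPKM in sh-LDB1, most of it CD3D at 23.2 and 20.1 against 42.2 and 45.2 FPKM. Megakaryocyte markers summed to between 3.12 and 4.51 FPKM and B cell markers to between 0.760 and 2.15 FPKM over the 4 libraries.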
